A study of Bos taurus with 10 samples.

Results

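Skeletal muscle was 1 of 10 bovine tissues whose DNA was read by reduced representation bisulfite sequencing (RRBS), and its library was compared with the 9 other libraries at autosomal CG sites that had at least 8 reads in every tissue. A total of 51227 such sites were found, among 152300 cytosines common to all 10 libraries and 151353 autosomal CG sites that passed 8 reads in muscle alone. RRBS cuts DNA with MspI at CCGG whatever its methylation, so the reads come from short fragments rich in CG, and after bisulfite treatment the share of reads that still show a C gives the methylation level of a cytosine. The animals were L1 Dominette, a cow of the Hereford breed, and relatives of this cow. Each tissue had 1 library.

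The muscle library bore the label "skeletal muscle near ceasarian" and came from an adult female. The others were whole testes of an adult male, juvenile female mammary parenchyma, adult female intercaruncular uterus, juvenile female frontal cortex, juvenile female abomasum (the glandular stomach), juvenile female ileum, rumen of a male fetus, nucleated blood cells of an adult female and the mammary gland of an adult female at day 90 of lactation. The labels name no treatment. Which animal gave which tissue was not given in the sources used here, so tissue, animal, age and sex cannot be told apart in any difference below. Skeletal muscle also holds other cells besides its fibres, and a level between the extremes cannot tell a share of the cells from a share of the chromosome copies within each cell. The label could not be checked against muscle marker genes, because no gene annotation of the build UMD3.1 was used here, and the regions below carry no gene names for the same reason.

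Skeletal muscle consists of multinucleate fibres formed by the fusion of myoblasts, together with satellite cells, fibroblasts, vessels and nerve. Methyl groups on CG cytosines are added by DNA methyltransferases and copied at cell division, and TET enzymes start their removal. CG-rich DNA is mostly unmethylated and the rest of the genome mostly methylated, and sites that depart from this between tissues often lie in regulatory DNA. The myogenic factors of the MyoD family bind E-boxes, six-base elements with the letters CANNTG.

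At a CG site the gap was the distance in percentage points between muscle and the nearest of the 9 other tissues, where muscle lay strictly below or strictly above all of them. A run was a stretch of at least 3 neighbouring tested sites, each at most 200 bp from the next, at which muscle lay outside all other tissues on the same side with a mean gap of at least 10 points. Runs are named by direction and by the rank of their mean gap. The reference sequences of 7 of them are shown: lower 1, lower 2, higher 1 and higher 2 as the widest of each direction, lower 7 as a longer run read on both strands, lower 5 for the E-box letters searched below and higher 6 because it lies on the same chromosome as lower 1. They were assembled from the sequence contexts deposited with each cytosine, are written 5′ to 3′ on the forward strand of UMD3.1, and have the CG sites of the run in capitals and unread bases as n. The sequences, which extend past the sites of the run, lie at chr24:57899715-57899763 (lower 1), chr23:51288997-51289046 (lower 2), chr6:109680145-109680191 (lower 5), chr18:18249661-18249704 (lower 7), chr9:105515347-105515494 (higher 1), chr26:49627363-49627411 (higher 2) and chr24:57831671-57831713 (higher 6).
lower 1: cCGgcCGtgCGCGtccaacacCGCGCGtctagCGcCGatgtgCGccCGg
lower 2: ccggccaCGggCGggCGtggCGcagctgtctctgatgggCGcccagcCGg
lower 5: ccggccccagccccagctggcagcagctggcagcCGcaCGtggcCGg
lower 7: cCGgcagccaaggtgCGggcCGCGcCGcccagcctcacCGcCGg
higher 1: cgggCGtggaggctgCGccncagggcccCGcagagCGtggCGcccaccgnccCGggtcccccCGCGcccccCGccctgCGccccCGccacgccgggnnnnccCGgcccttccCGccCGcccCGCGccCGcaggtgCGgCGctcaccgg
higher 2: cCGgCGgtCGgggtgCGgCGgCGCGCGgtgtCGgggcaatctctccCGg
higher 6: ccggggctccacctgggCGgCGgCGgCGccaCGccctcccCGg

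In these sequences the sites lie close together. Most runs lie within a single fragment between MspI cuts. Sites of such a run on the same strand can be covered by the same reads and are not independent of each other, while the strands were read separately.

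The mean CG level of muscle was in the middle of the tissues. It was 28.0% over the 51227 sites, against 28.3% ± 2.14 (SD, n = 9 tissues), with testis lowest at 24.1% and nucleated blood cells highest at 31.8%. Muscle had the 7th highest mean of the 10, and its difference from the mean of the others, -0.26 points, did not pass an exact two-sided permutation test (p = 0.7), which with 1 tissue against 9 cannot go below 0.1. Weighting sites by their reads turned the sign of this difference. Muscle had a level below 20% at 65.1% of the sites and above 80% at 19.0%.

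The depth of the muscle library was in the range of the others. At the common sites its median was 33 reads, against 32 to 50 in 8 tissues and 12 in abomasum, where only 19.8% of the sites had 20 reads. At sites with a gap of at least 25 points muscle had fewer reads. Its median there was 25 in the lower and 22 in the higher direction, and that of abomasum was 11 and 10. All counts and intervals below cover counting error alone, and PCR copies were not marked. With 1 library per tissue, a test on the reads compares libraries and not tissues.

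By correlation across sites, muscle was farthest from testis, while the nearest tissue depended on the measure. Pearson's r across the 51227 sites, which are not independent, was 0.972 with uterus and 0.927 with testis, and 84.6% and 74.5% of the sites lay within 10 points. Spearman's rho was highest with abomasum, at 0.870, against 0.864 with uterus and 0.849 with testis, and rumen had the largest share of sites within 10 points, 84.9%. Differentially methylated cytosines (DMCs) were called for muscle against each tissue with Fisher's exact test of methylated against unmethylated reads, at a Benjamini-Hochberg q under 0.01 and a difference of at least 25 points. The 9 comparisons share the muscle library, and their numbers of DMCs depend on depth as well as on levels. Ileum had 4.51% and abomasum 4.50% of sites at least 25 points from muscle, but 663 and 122 DMCs. Their median reads were 50 and 12. The numbers of DMCs therefore do not rank the tissues by their difference from muscle.

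The largest number of DMCs was found against testis, the only tissue with germ cells. Muscle was lower than testis at 355 sites (0.693% of those tested) and higher at 2064 (4.03%). Against nucleated blood cells the split was the other way, with 1015 sites lower in muscle (1.98%) and 288 higher (0.562%). Both tissues lay at the ends of the range of mean levels.

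Against the tissues of the digestive tract the splits differed. Muscle was lower than ileum at 443 sites (0.865%) and higher at 220 (0.429%). It was lower than the fetal rumen at 147 (0.287%) and higher at 210 (0.41%). Against abomasum only 66 (0.129%) lower and 56 (0.109%) higher sites were called, and abomasum had the fewest reads. The numbers against frontal cortex were 182 (0.355%) and 259 (0.506%).

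The numbers of DMCs against uterus, mammary parenchyma and the lactating gland were 242, 414 and 670. Against uterus muscle was lower at 174 sites (0.34%) and higher at 68 (0.133%). Against mammary parenchyma it was lower at 184 (0.359%) and higher at 230 (0.449%), and against the lactating gland at 314 (0.613%) and 356 (0.695%). Lower calls thus outnumbered higher calls in 4 of the 9 comparisons.

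Muscle stood outside all 9 tissues at a small part of the sites. It was the lowest at 1413 sites (2.76%), or at 2258 when testis was left out. It was the highest at 3407 (6.65%). Most of these gaps were small, with medians of 4.08 points for the lowest and 2.12 points for the highest sites. A gap of at least 10 points was left at 373 sites (0.728%) in the lower and 322 (0.629%) in the higher direction, and at least 25 points at 109 (0.213%) and 91 (0.178%). The sites nearest to the limit of 10 points had gaps of 10 and 9.94 points in the lower and 10 and 9.98 points in the higher direction.

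**Figure D1:**
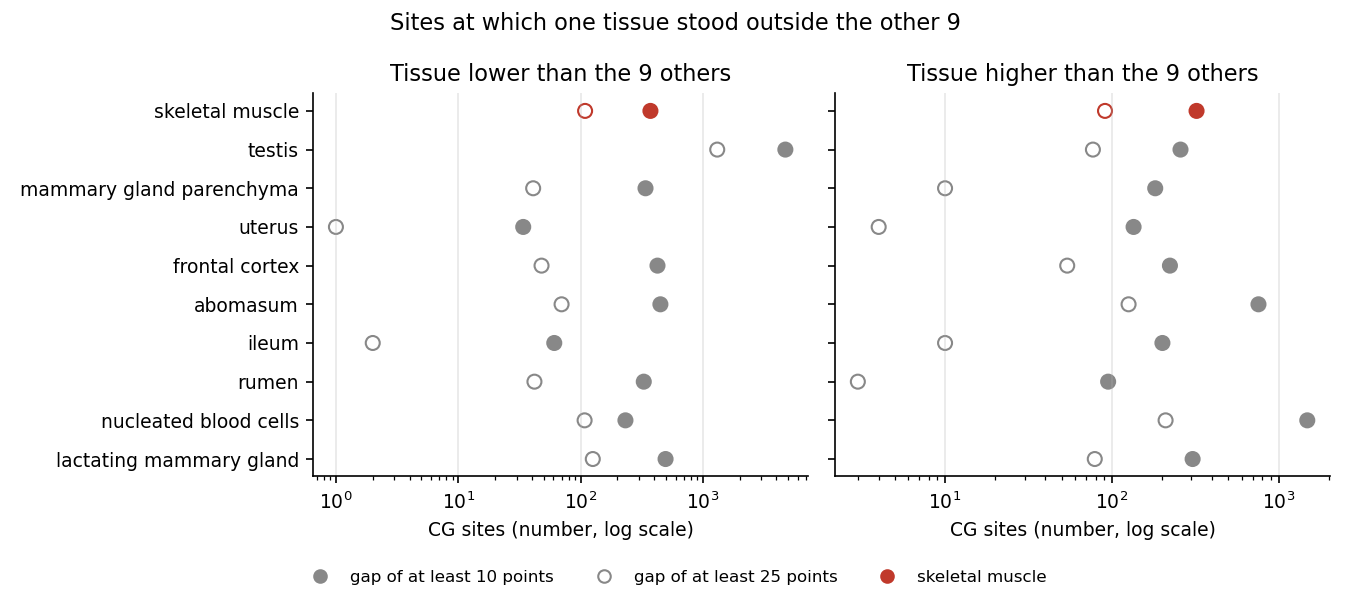
Number of the 51227 CG sites (log axis) at which each tissue was lower (left) or higher (right) than the 9 others, with a gap of at least 10 points (filled) or 25 points (open). Muscle (red) had 109 sites in the lower and 91 in the higher direction at 25 points, the third largest numbers in each. At 10 points it had the 5th largest number in the lower and the 3rd largest in the higher direction.

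At any gap muscle had the 7th largest number of sites of the 10 tissues in both directions. At 10 points it had the 5th largest in the lower and the 3rd largest in the higher direction. At a gap of 25 points it had the 3rd largest number in both directions. In the lower direction testis had 1312, the lactating gland 126 and nucleated blood cells 108. In the higher direction nucleated blood cells had 210, abomasum 126 and the lactating gland 79. Uterus had 1 and 4. The plot of sites per tissue shows both directions. The part that the shallow reads of abomasum had in its numbers was not tested.

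The levels of muscle at these sites were mostly intermediate, a description that the choice of sites partly fixes, since such a gap bars muscle from the nearer extreme. At the 373 sites with a gap of at least 10 points in the lower direction muscle had a median of 50%, and 87.1% of them lay between 20% and 80%. The median of the other tissues was above 80% at 74.8% of these sites, against 20.8% of all. The choice of sites partly sets this contrast too, since every other tissue must lie at least 10 points above muscle. The same holds in the higher direction. At the 322 sites in the higher direction the median of muscle was 45.5%, 74.2% lay between 20% and 80%, and the other tissues had a median below 20% at 75.8% of them, against 65.7% of all.

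Sites with large gaps were mostly neighbours of each other. Runs held 241 sites lower in muscle (0.47% of the tested sites) in 44 runs on 21 chromosomes, and 203 sites higher in muscle (0.396%) in 30 runs on 18 chromosomes. They contained 82.6% of the lower and 91.2% of the higher sites with a gap of 25 points. Testis had 720, the lactating gland 63 and mammary parenchyma 44 lower runs, and nucleated blood cells had 133 higher runs, the only tissue with more than muscle. A lower run had a median of 4 and at most 20 sites, and a higher run a median of 5.5 and at most 19. All 44 lower runs and 27 of the 30 higher runs lay between neighbouring MspI cuts as far as these could be read.

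Both strands of the run could be compared in 20 lower and 11 higher runs, and the mean levels of muscle on the strands differed by medians of 8.27 and 8.63 points. Muscle lay between 20% and 80% in 41 of the 44 lower runs, with a median over runs of 47.9%, and in 26 of the 30 higher runs, with a median of 41.7%. The median of the other tissues was above 80% in 36 of the lower and below 20% in 25 of the higher runs. The mean gap ran from 10.01 to 47.5 points in the lower and from 10.2 to 38.6 points in the higher runs, and 19 and 14 of them passed 20 points.

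**Figure D2:**
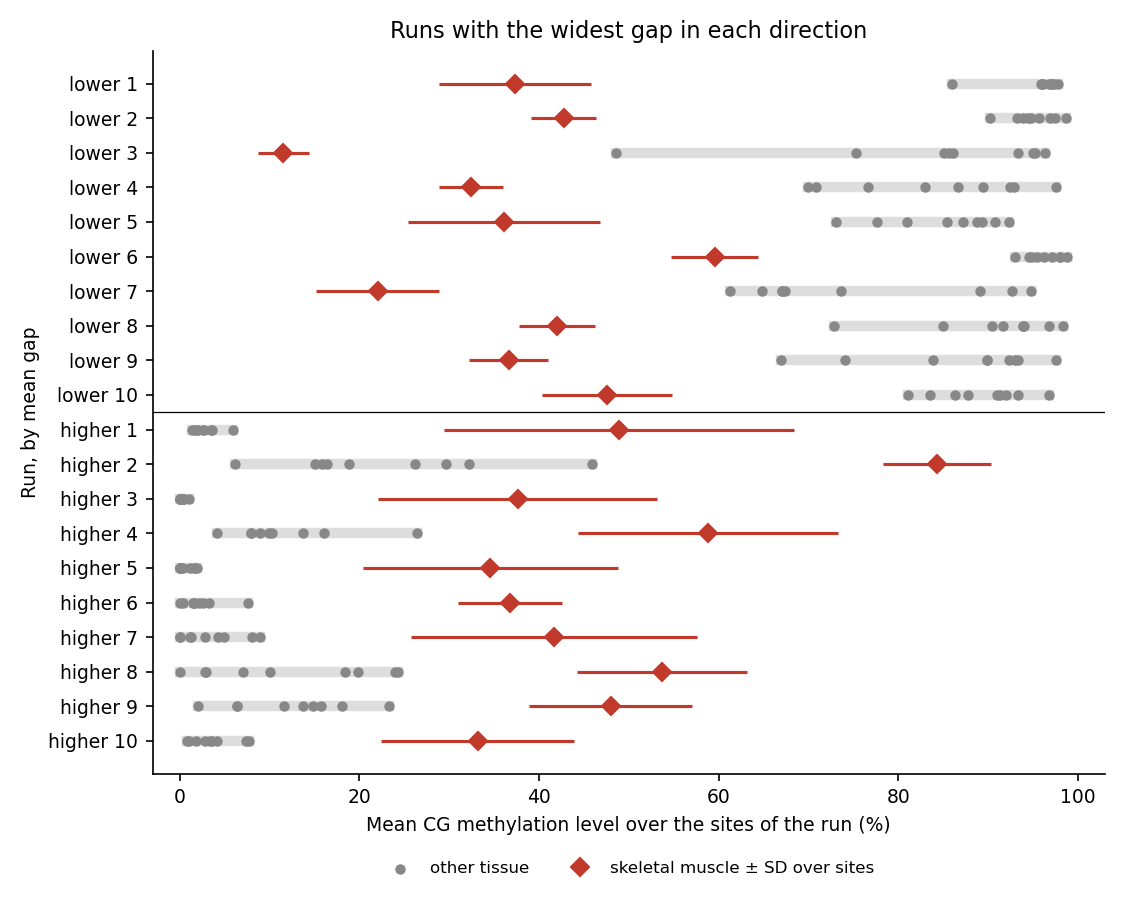
Mean CG methylation level (%) over the sites of the 10 runs with the widest gap in each direction, for muscle (diamonds, with the SD over the sites of the run, which is not a replicate error) and the other tissues (grey points, 1 library each). Muscle lay between 11.5% and 59.6% in the lower runs and between 33.2% and 84.3% in the higher runs, outside every other tissue in each.

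The widest gap was at the run lower 1 on chromosome 24, with 20 sites at 11 CG dinucleotides and 45 bp between the MspI cuts. The mean level of muscle was 37.4% at 19 to 27 reads per site. Testis had 85.9%, frontal cortex 95.9%, abomasum and rumen both 96.1%, nucleated blood cells 96.8%, uterus 97.0%, mammary parenchyma 97.1%, ileum 97.4% and the lactating gland 97.8%. Muscle was alone in this range, and the other tissues apart from testis lay within a few points of each other. On the forward strand muscle had 45.1% and on the reverse strand 29.7%. The single sites of muscle ran from 25% to 52.0%, so that no site carried the difference alone.

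At the run lower 2 on chromosome 23, with 6 sites on the reverse strand, muscle had 42.7% at 21 or 22 reads. The other tissues ran from 90.2% in the lactating gland through a median of 94.8% to 98.7% in abomasum. The run lower 6 on chromosome 7 had the same form with 59.6% in muscle and 93.0% to 98.8% elsewhere. In these runs all 9 other tissues were almost fully methylated.

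At other runs the remaining tissues were spread. The run lower 3 (chr3:118116613-118116645, 3 sites) had the lowest muscle level of the 10 widest, 11.5% at 34 or 35 reads. Frontal cortex had 48.6% and testis 75.3%, and the others lay between 85.1% and 96.4%. Frontal cortex thus stood between muscle and the rest. At the run lower 7 on chromosome 18 muscle had 22.04% over 12 sites, with 20% on the forward and 24.1% on the reverse strand. Abomasum had 61.2%, frontal cortex 64.8%, testis and uterus both 67.1%, rumen 67.4% and nucleated blood cells 73.6%, while ileum (89.1%), mammary parenchyma (92.7%) and the lactating gland (94.8%) were higher. At the run lower 30 on chromosome 13 muscle was nearly unmethylated, with 3.70% over 16 sites, and the others ran from 21.2% in rumen through 40.6% in abomasum to 82.5% in nucleated blood cells.

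The other runs among the 10 widest in the lower direction, on chromosomes 7 (lower 4), 6 (lower 5), 17 (lower 8), 29 (lower 9) and 25 (lower 10), had 3 to 5 sites. Muscle lay between 32.4% and 47.6% in them, and the lowest of the other tissues between 66.9% and 81.1%. Frontal cortex was nearest to muscle in 12 of the 44 lower runs, more than any other tissue, and nucleated blood cells in 0. Of the 12, lower 24 and lower 29 are pieces of the same MspI fragment. By site, frontal cortex was nearest at 19.0% of the 373 lower sites with a gap of at least 10 points. Testis was nearest at 16.4% of them. Over all tested sites frontal cortex had a mean level of 27.0%, the 9th highest, and nucleated blood cells the highest, 31.8%. The part of these overall levels in the counts was not tested.

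**Figure D3:**
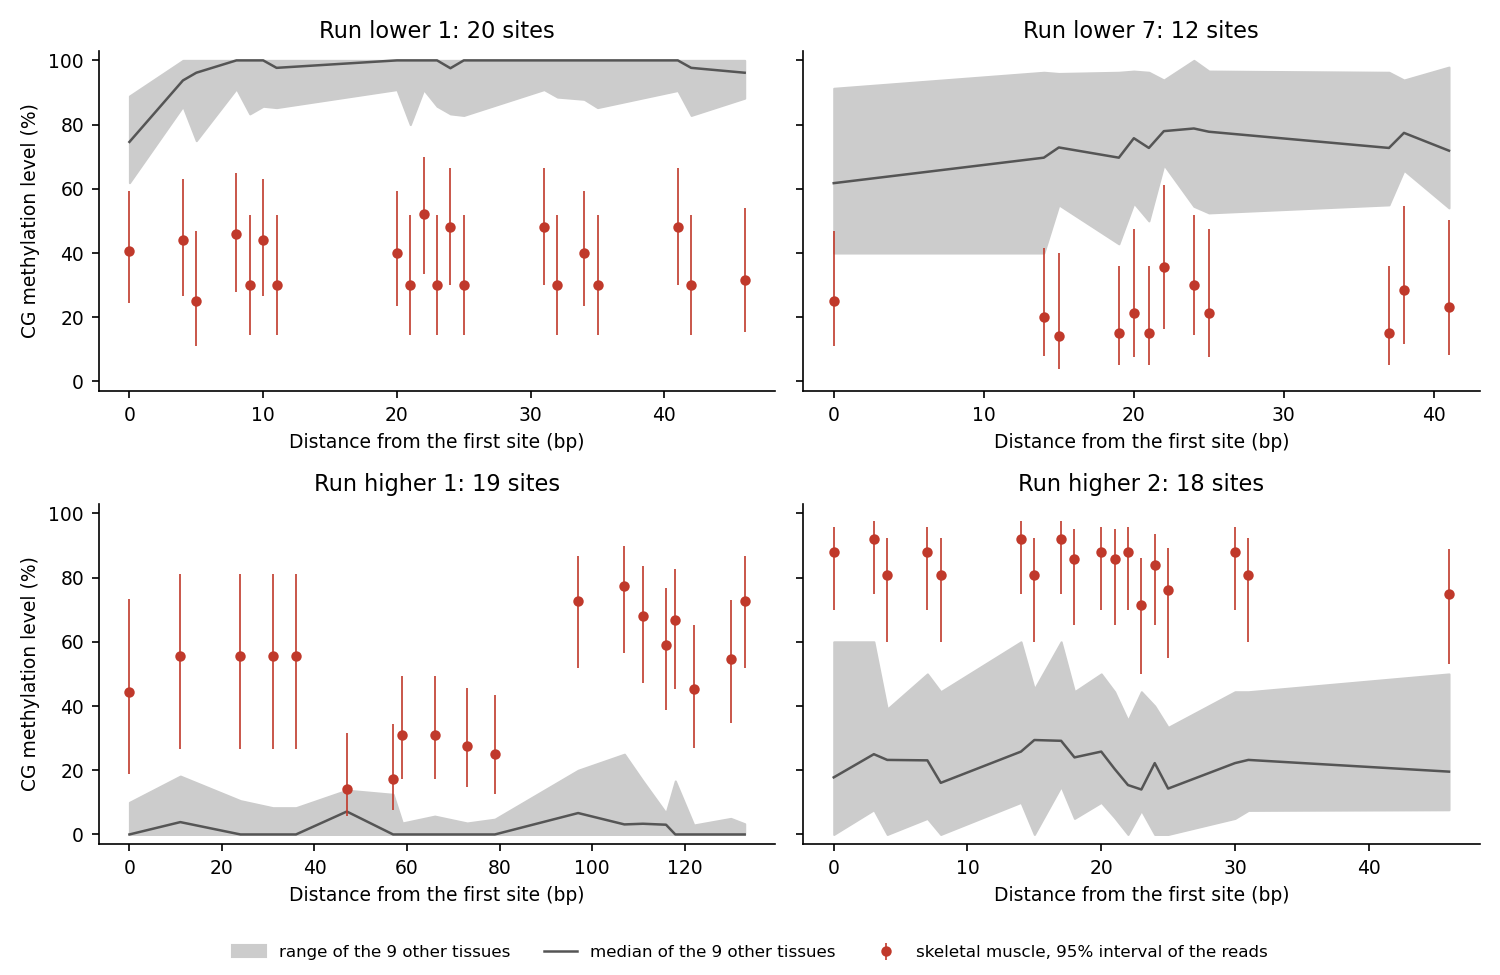
CG methylation level (%) at each site of 4 runs against its distance from the first site (bp). Red points are muscle with the 95% Wilson interval of its reads, the grey band spans the 9 other tissues and the line is their median. At lower 1 muscle ran from 25% to 52.0% and at higher 2 from 71.4% to 92.0%, while at higher 1 it changed along the run from 14.3% to 77.3%.

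In the higher direction the widest gap was at the run higher 1 on chromosome 9, with 19 sites on 134 bp in 3 fragments. The mean level of muscle was 48.9% at 9 to 29 reads. Nucleated blood cells had 1.31%, mammary parenchyma 1.70%, rumen 1.91%, ileum 2.06%, testis 2.64%, uterus 2.73%, the lactating gland 3.51%, frontal cortex 3.53% and abomasum 5.92%. All other tissues were nearly unmethylated. The 3 fragments differed in muscle, which was at 44.4% to 55.6% over the first 5 sites, at 14.3% to 31.0% over the next 6 and at 45.5% to 77.3% over the last 8. At the first 5 sites muscle had only 9 reads. A further run, higher 12, followed 356 bp on with 4 sites at a mean of 26.6% in muscle and 0% to 3.30% elsewhere. Its single sites ran from 3.125% to 40.6% in muscle. It was chosen by the same rule, so it is not independent evidence for higher 1.

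The run higher 2 on chromosome 26 was the only 1 of the 20 in which muscle was above 80%. Its 18 sites had a mean of 84.3% in muscle at 20 to 25 reads, with 88.9% on the forward and 79.8% on the reverse strand. Frontal cortex had 6.12%, testis 15.0%, ileum 15.8%, mammary parenchyma 16.4%, nucleated blood cells 18.8%, rumen 26.2%, the lactating gland 29.7%, uterus 32.2% and abomasum 45.9%. Abomasum was nearest and had 8 to 10 reads. The gap at single sites ran from 25 to 52.5 points.

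At several higher runs the other tissues were close to 0%. At the run higher 3 (chr17:74843775-74843789, 5 sites) muscle had 37.6% and the others 0% to 0.98%. At the run higher 5 (chr26:42407907-42407936, 7 sites) muscle had 34.6% and the others at most 1.97%. At the run higher 6 on chromosome 24 muscle had 36.8% over 6 sites and the others 0% to 7.62%. The run higher 4 on chromosome 26 had 58.8% in muscle, and abomasum, the nearest, had 26.4%. The remaining runs of the 10 widest, on chromosomes 21, 2, 14 and 6 (higher 7 to higher 10), had 33.2% to 53.8% in muscle, with the highest other tissue between 7.74% and 24.3%. The gap at single sites fell to 0.18 points at higher 5 and to 4.17 points at higher 7, where muscle had 12 reads.

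The plot of the 20 runs shows muscle outside the other tissues in each, as the definition of a run requires. Frontal cortex and nucleated blood cells were each nearest to muscle in 7 of the 30 higher runs, and abomasum in 6. By site, their shares of the 322 higher sites with a gap of at least 10 points were 18.3%, 18.9% and 17.1%. Fisher's test called no site of a run in all 9 comparisons. In 3 lower runs 10 sites, and in 5 higher runs 9 sites, were called as DMCs in at least 8 of the 9 comparisons, and 8 and 9 of them lacked only abomasum.

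A cytosine called in all 9 comparisons in the same direction is named a tDMC here. There was 1 tDMC lower in muscle (0.00195% of the sites) and 0 higher (0%). Without abomasum the numbers were 9 and 10, of which 7 of the lower lay in lower 1. Both numbers thus moved with the library that had the fewest reads.

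The single tDMC stood apart from the runs. It lies at chr13:31602789-31602789 on the forward strand within a CCGG, with 14.7% of 353 reads methylated in muscle (95% Wilson interval 11.4% to 18.8%). The other tissues ran from 41.2% in frontal cortex through 69.0% in rumen to 88.9% in mammary parenchyma, on 27 to 51 reads. The muscle reads were far more numerous than those of any other tissue at this site. Its 6 tested neighbours within 50 bp differed between muscle and the mean of the others by 0.22 points on average, and muscle was outside the others at 0 of them.

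Among sites with at least 20 reads in every tissue, the widest gaps were of moderate size. In the lower direction 3 of the 5 lay in the run lower 21 (chr14:3629406-3629442), where muscle had 28.8% over 6 sites and the others 49.01% to 86.6%. In the higher direction the widest was at chr19:19834517-19834517, with 33.3% of 36 reads in muscle and at most 5.41% elsewhere. A site at chr3:102605702-102605702 was methylated in all 67 muscle reads (interval 94.6% to 100%), while testis was lowest of the others at 27.1% and nucleated blood cells highest at 81.7%. Its 6 neighbours differed by only 4.22 points on average. In total 19 lower and 8 higher sites with a gap of 25 points lay outside runs, and the median differences of their neighbours within 50 bp were -20.5 and 18.8 points.

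The sites beside the runs had not been used to choose them in most cases. CG sites within 1000 bp of a run were taken that lay in other MspI fragments and were read in muscle and at least 5 other tissues. Near 5 lower runs there were 27 such sites, and muscle was below the mean of the others at 22 of them (81.5%), against 55.5% of all 121654 sites that met the same minimum. Near 11 higher runs, of which higher 11, higher 22 and higher 30 share the same 2, there were 73 distinct sites, and muscle was above the mean at 57 of them (78.1%), against 32.6% of all sites. The mean differences were -16.6 and 19.9 points, against -0.52 points over all sites. A difference of at least 10 points in the direction of the run was found at 63.0% and 61.6% of the sites, against 7.67% and 6.36% of all. Of these sites 18 and 68 were not among the 51227.

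**Figure D4:**
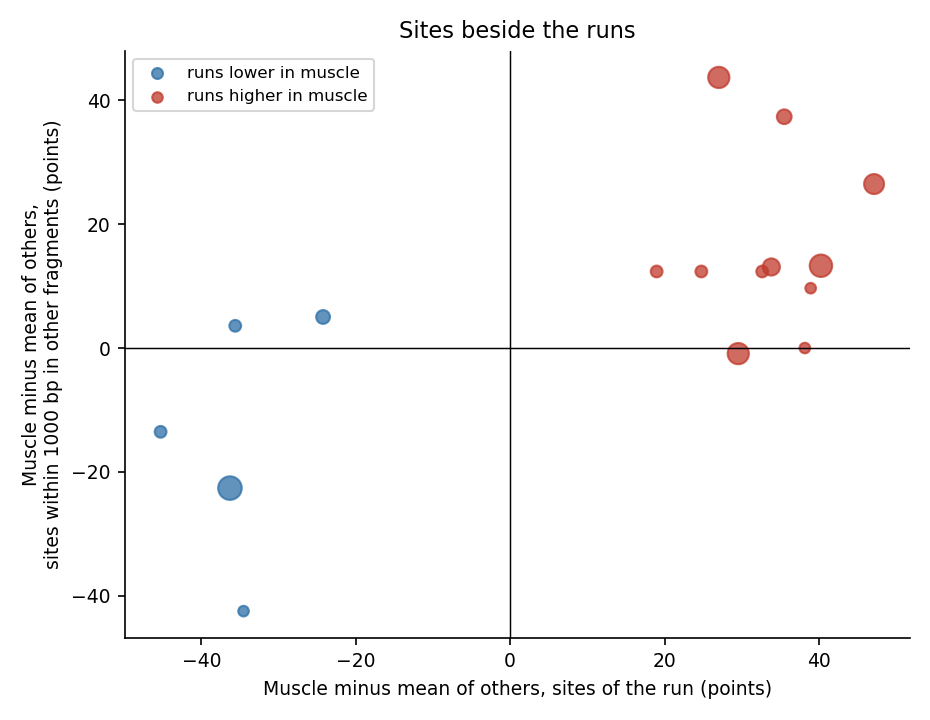
Difference between muscle and the mean of the other tissues (points) over the sites of a run (x axis) and over CG sites within 1000 bp in other MspI fragments (y axis), for the 16 runs with such sites, with the marker area growing with the number of sites (1 to 18). The sites beside the run differed in its direction on average for 3 of 5 lower runs (blue) and, with runs that share the same sites counted once, for 7 of 9 sets beside higher runs (red).

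Few runs carried this result. The 18 sites beside the run lower 39 on chromosome 15 had a mean of -22.6 points, with muscle lower at 17. Without them 9 sites beside lower runs were left, with muscle lower at 5 and a mean of -4.70 points. In the higher direction all 14 sites beside higher 21 (43.7 points, on chromosome 17) and all 12 beside higher 4 (26.5 points) were higher in muscle, and without higher 21 the mean of the other 59 sites was 14.3 points. The 14 sites beside higher 10 on chromosome 6 were not, with a mean of -0.90 points and muscle higher at 2. The plot of sites beside the runs shows these exceptions.

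Runs were unevenly placed on the chromosomes. The 2 chromosomes named here had the largest shares, and no test was made. Chromosome 26 held 4 of the 30 higher runs and 12.4% of the sites with a gap of 10 points in the higher direction, with 2.31% of the tested sites. Of its 40 such sites 18 lie in the single run higher 2, so they are not independent. Chromosome 25 held 6 of the 44 lower runs and 12.6% of the sites in the lower direction, with 5.38% of the tested sites. Of these 6 runs, lower 10 and lower 23 are pieces of the same MspI fragment. Within 200 kb there were 15 pairs of runs of the same and 7 of opposite direction. Of the 15 pairs, 4 were pieces of the same MspI fragment 2 to 15 bp apart, split by a tested site that did not meet the rule. This leaves 11. Some of these 11 and of the 7 pairs of opposite direction still count such a split fragment more than once. The run higher 6 and the run lower 1 on chromosome 24 were 68.0 kb apart. On chromosome 26 the runs lower 26 and lower 36 lay 55.2 kb from higher 2, and on chromosome 23 lower 2 lay 172 kb from the runs higher 11, higher 22 and higher 30.

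Muscle was also compared over CG islands. The study lists 836 islands, which it chose on these same samples, so they are not independent evidence, and 646 of them held at least 5 of the tested sites. The mean level of muscle was at least 10 points outside every other tissue at 23 islands, lower at 9 and higher at 14. These islands overlap the runs, of which 11 of the 44 lower and 18 of the 30 higher ones lay inside a listed island. The share of all tested sites inside listed islands was not counted, so these numbers cannot be read as an excess. At 22 of the 23 a run lay within the island.

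The island with the widest lower gap (chr24:57899237-57900386) was read only at the sites of lower 1 and had 37.4% in muscle against 85.9% in testis, the nearest. The next were on chromosome 23 (chr23:51288562-51289498, the sites of lower 2) and chromosome 7 (chr7:18403410-18403715, those of lower 6). At an island of chromosome 21 (chr21:71342449-71349861) muscle had 47.2% over 10 sites and the others 76.8% in uterus to 91.7% in frontal cortex. In the higher direction the island chr9:105515148-105517924 had 45.03% in muscle over 23 sites, and the others 1.66% to 4.89%. An island on chromosome 26 (chr26:49623539-49629653) that holds higher 2 had a mean of 49.1% in muscle with an SD over its 33 sites of 39.7, so its sites were not alike, and the others ran from 4.77% to 28.2%.

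The fragments of the runs were compared with all 3656 completely read MspI fragments with at least 3 tested sites. All had a median length of 44 bp, the 35 fragments of lower runs 45 bp and the 27 of higher runs 44 bp. Lower fragments held 11.98 CG per 100 bp and higher fragments 15.9, against 15.5 in all. An E-box, CANNTG, was found in 5 of the lower fragments (14.3%) and 3 of the higher (11.1%), against 9.90% of all. Its form CAGCTG was in 3 lower fragments (8.57%) and 0 higher, against 2.46% of all, and CAGGTG or its complement CACCTG in 1 lower (2.86%) and 3 higher (11.1%), against 4.13%. The sequences of lower 2 and lower 5 above contain CAGCTG. These letters were searched on both strands, the last 2 forms are also E-boxes, and a match says nothing of binding.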

How the data were processed

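RRBS libraries of 10 bovine tissues, 1 each, were used, with tissue, sex and stage from the labels and the study's sample list. After trimming, the authors mapped the reads to UMD3.1 with a SOAPaligner-based pipeline and retained cytosines with at least 8 reads. For each cytosine the authors deposited the reads as a count without normalization, which reaches at most 65535, and the methylation level as a fraction. Methylated reads, the level times the reads, were whole within 0.01 at every cytosine. Further deposited columns with a p-value and FDR of the authors were not used. Sites were matched by chromosome, position and strand.

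Fisher's exact tests (two-sided) were adjusted by Benjamini-Hochberg within each pair over all 152300 common cytosines. Because each tissue had 1 library, sites, runs and islands outside the other tissues are described without a test. The text names the 10 runs of each direction with the widest mean gap, each tDMC, up to 5 deep sites (20 reads in every tissue) and up to 6 islands of each direction by gap. The island chr26:49623539-49629653, which holds higher 2, was named besides these, since its gap of 20.8 points lies outside the 6 widest. Runs lower 21, 30 and 39 and higher 12 and 21, and the islands' overlap with runs, were picked after their values were seen, as was leaving out lower 39 and higher 21 from the sites beside runs. The runs, motifs and tests were chosen with earlier results of these data known. The planned muscle gene lists could not be used without an annotation of UMD3.1. Alternatives changed the minimum reads, thinned the reads, pooled strands, left out abomasum, testis or the most covered sites, and moved limits. The calling was tested on simulated data. Scripts ran in Python 3.11.15 with Numba 0.67.0, matplotlib 3.10.9, pandas 2.3.3, SciPy 1.17.1 and NumPy 2.4.6, with seed 1.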

Additional observations from a re-analysis of the deposited data

Results flagged for a closer look

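Outside the CG sites, 95338 autosomal cytosines in other contexts were read in all 10 tissues, and 2 of them were called higher in muscle than in each of the 9 others. At chr29:19443471-19443471 on the forward strand (context CHH) muscle had 72.7% of 682 reads, against 6.78% to 41.3% elsewhere. At chr25:32472659-32472659 on the forward strand (CHH) muscle had 37.7% of 228 reads, against 0% to 12.04%. In all, 5 such cytosines were at least 25 points above every other tissue, of which 3 had 9 to 21 muscle reads and were called in no comparison. Of 1050 CG sites on chromosome X, 1 was at least 25 points higher in muscle than in every other tissue. These values were noted because they lie outside the autosomal CG comparison and above the level of the other tissues. Their source was not tested.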

How the results depend on the processing

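No paired analysis was possible because each tissue had 1 library. The difference of the mean level, -0.26 points, became 0.17 with at least 20 reads in all tissues and 0.60 when weighted by reads, and passed the permutation test under none of the alternatives. With at least 20 reads in all tissues 7147 sites were tested, against 51227. Of the 7147 sites 112 were lowest and 327 highest in muscle, against 1413 and 3407 in the main setting. The median number of DMCs per comparison fell from 441 to 122. There was 1 lower run, against 44, 1 higher run, against 30, and 0 islands, against 23. With 10 reads, 14 islands were left. With thinned reads 889 sites were lowest and 1692 highest, tDMCs lower fell to 0 and the median of DMCs to 42. Pooling strands gave 10 tDMCs lower and 2 higher, and leaving out abomasum 9 and 10. Leaving out testis gave 2258 lowest sites. A gap of 10 points left 373 lowest and 322 highest sites. A difference of 40 points left 0 tDMCs lower, and adjustment over CG sites alone gave 1 higher. With 5 sites per run 17 lower runs were left, and with 10 sites per island 9 islands. The other alternatives kept the counts within 1.5 times.

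The 20 named runs kept muscle outside every other tissue wherever they had sites. For settings that dropped sites or a tissue, the definition of a run fixes this outcome. Thinning, with gaps of 21.3 to 52.1 points, drew from the same reads that chose the runs and is not independent evidence. With 10 reads in all tissues 16 of the 20 runs had sites and with 20 reads 0. The causes of these changes were not tested. Abomasum had the fewest reads, with a median of 12, and was nearest to muscle in level in 4 of the 44 lower and 6 of the 30 higher runs. The part of its depth and of its levels in what was called in all 9 comparisons was not tested.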

Other observations

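Sites within a CCGG made up 27.0% of the 1413 sites lowest in muscle and 19.0% of those with a gap of at least 10 points, against 12.9% of all tested sites, and 12.6% of the 3407 sites highest in muscle. Of 730 CG sites of unplaced sequence and mitochondria, 9 were at least 10 points lower in muscle than in every other tissue and 2 at least 25 points lower.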
